A study of Mus musculus with 4 samples.

Results

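The zinc finger genes described here are those whose mouse symbols run from Zfp700 to Zfp999, chosen by symbol alone. The gene count tables of the series held 25239 symbols, 124 of them in this range, and the 114 with at least 20 counts summed over the 4 libraries were analysed. Of these, 113 passed a filter on low counts and were tested, and Zfp972, with 27 counts in all, was not. The libraries were made from polyadenylated RNA of mouse embryonic stem cells (mESC) of genotype Ogt fl/fl, in which the gene for O-GlcNAc transferase can be removed by recombination. The Ogt iKO group (inducible knockout, 2 libraries) came from cells grown with 4-hydroxytamoxifen (4-OHT) for 6 days, and the control group (2 libraries) from cells of the same genotype kept without it for 6 days. All of these cells grew on mouse embryonic fibroblasts treated with mitomycin C, in medium with LIF, and were sorted by flow cytometry for viability and for the surface proteins CD90.2 and CD326. The labels give CD90.2 as the mark of the mESC and CD326 as the mark for removing fibroblasts, whereas CD326 (EpCAM) is known from mESC and CD90 from fibroblasts, so which marker selected which cells is uncertain. Selection for yellow fluorescent protein was described for the treated cells alone, so this selection, the ligand and the loss of Ogt cannot be told apart. The labels name neither the clone nor what drives the recombinase, and a 4-OHT treatment of cells that keep Ogt is not among the groups. They do not say that the 2 libraries of a group came from separate cultures, so p-values measure the spread between these libraries, which may be technical.

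Most Zfp genes of this range encode proteins with a Krüppel-associated box (KRAB) followed by an array of C2H2 zinc fingers. The fingers bind particular DNA sequences, many of them in transposable elements, and the KRAB domain recruits TRIM28 (KAP1), which brings the histone methyltransferase SETDB1 and heterochromatin protein 1. The genes multiplied by tandem duplication and lie in clusters of related copies, and in mESC this system is known for keeping endogenous retroviruses silent. Zfp genes without a KRAB domain have other roles, among them the regulation of differentiation. The series addresses DNA methylation, transposable elements and their neighbouring genes in cells that lack OGT. The counts used here cover genes and not transposable elements.

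Library totals ran from 14668489 to 16504204 counts. The counts of Ogt were 437 and 389 in Ogt iKO and 2963 and 3108 in control (log2 fold change -2.96). All 10 embryonic stem cell markers examined, among them Pou5f1, Nanog and Sox2, were detected in all 4 libraries, and 9 of the 10 were lower in Ogt iKO, where 32.0% of all genes tested were lower and 33.2% higher. Their summed level was 2459 and 2787 CPM (counts per 1000000, on library sizes scaled by trimmed means, TMM) in Ogt iKO replicates 1 and 2, against 4449 and 4456 CPM in the controls. The 16 markers of feeder fibroblasts summed to 2928 CPM in Ogt iKO replicate 1, 847.5 CPM in Ogt iKO replicate 2 and 1091 and 1231 CPM in the controls, and none of them was at 0 in any library. Markers of 2-cell-like cells, a small subset of mESC resembling the 2-cell embryo, summed to 149 and 165 CPM in Ogt iKO and to 35.2 and 22.2 CPM in control, and all 9 tested of the 10 found in the tables were higher. The part of fibroblast RNA and of these shifts in cell state in the results below was not tested. In bulk samples such as these, fewer cells of a type and less RNA per cell cannot be told apart.

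More of these zinc finger genes fell than rose on TMM-scaled sizes, though not under scaling by library totals. Of the 113 tested, 42 were lower and 21 higher in Ogt iKO (edgeR quasi-likelihood, Benjamini-Hochberg adjusted p under 0.05 over all genes). These are 37.2% and 18.6% of them, where 32.0% and 33.2% of all 14525 genes tested were lower and higher (65.3% in either direction). For 56 of them both Ogt iKO libraries lay below both controls and for 35 both lay above, where 40.9% and 42.3% of all genes tested did so (83.2% in either direction). Most changes were small. At a fold of at least 2, 5 rose and 5 fell, against 14.9% and 6.04% of all genes tested. The filter was passed through the libraries of a single group by 4 members, Zfp853 and Zfp872 (higher, neither with DESeq2), Zfp773 (lower) and Zfp879 (not called).

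The median log2 fold change of the 113 genes was -0.16, against 0.02 over all genes tested. In the 4 pairs of 1 Ogt iKO and 1 control library, which share libraries, the median of these genes ran from -0.19 to -0.11. Scaling by library totals alone raised both medians by the same amount, to 0.01 and 0.19, so the distance of -0.19 between them was the same on either scale while the sign of the members' median was not. Under that scaling 35 genes were higher and 28 lower, where 42.1% of all genes tested were higher and 22.6% lower. DESeq2 called 11 higher and 32 lower, where it called 22.1% of all genes higher and 25.5% lower. Leaving out control replicate 1 gave 15 higher and 35 lower and a median of -0.09, with no other library moving the median as far. The summed level of the 114 genes was 3043 and 3006 CPM in the controls and 2688 and 2691 CPM in Ogt iKO, or 88.9% of control. On this sum both treated libraries lay below both controls. They did not on library totals. Per 1000000 counts of the library total, the sum was 2853.2 and 2847 in the controls and 2853.3 and 2846 in Ogt iKO, or 99.97% of control, with the groups overlapping.

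**Figure D1:**
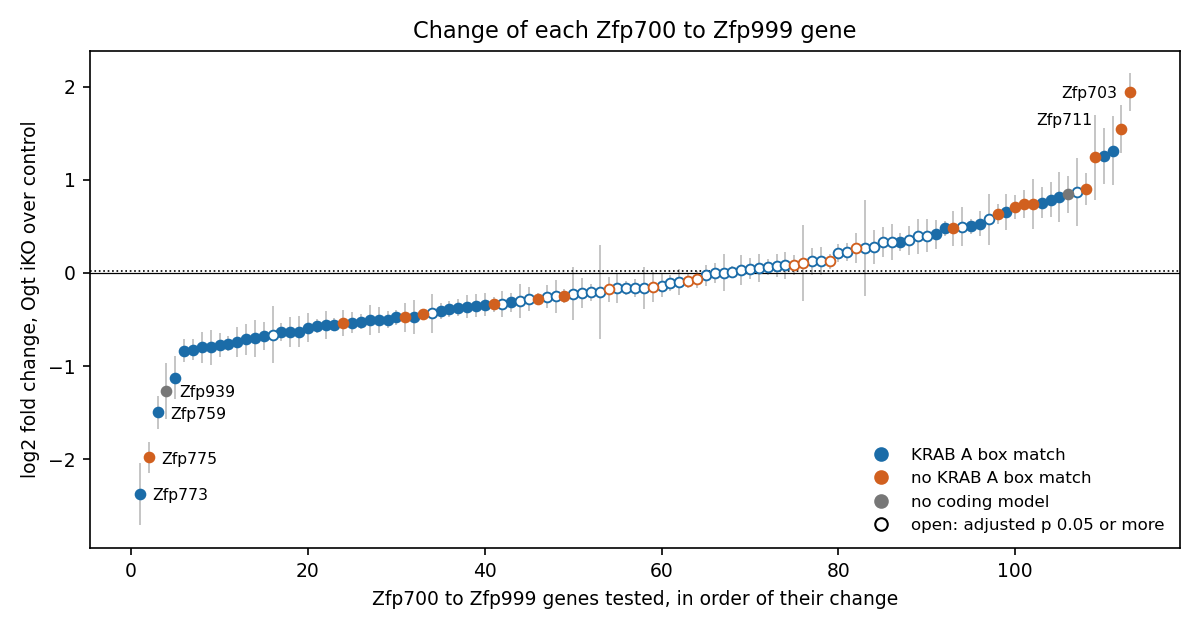
Log2 fold change (Ogt iKO over control, edgeR) of the 113 Zfp700 to Zfp999 genes tested, in rank order, with standard errors as grey bars; filled points are called at an adjusted p under 0.05, blue points match the KRAB A box pattern, and the dotted line is the median of all genes tested (0.02). The left end is held by Zfp773 and Zfp775, the right end by Zfp703 and Zfp711, and most of the called KRAB genes lie between -0.83 and -0.31.

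Of the 42 genes that fell, 34 encode a KRAB domain, as do 87 of the 113 tested. A pattern of the KRAB A box was matched within the first 150 residues of the translated coding sequence of 88 members. It was not matched in 24, and 2 (Zfp783 and Zfp939) had no coding model. A box further in, or one that departs from the pattern, would be missed. Genes said to lack the box are thus those without a match. Of the 87 KRAB genes tested, 34 were lower (39.1%) and 11 higher (12.6%), against 32.0% and 33.2% of all genes tested, with a median log2 fold change of -0.21. Of the 24 without the box, 7 were lower and 9 higher, with a median of 0.10. The summed level of the KRAB genes was 2170 and 2125 CPM in the controls and 1860 and 1882 CPM in Ogt iKO, or 87.1% of control, and that of the genes without the box was 93.1% of control. On library totals these sums were 97.95% and 104.7% of control, so the direction turned for the genes without the box. Of 146 KRAB finger genes tested outside the symbol range, 54 were lower and 19 higher, with a median of -0.25. Among 304 genes outside the range with at least 3 fingers and no KRAB box, 99 were lower and 99 higher, with a median of 0.00. Without Ogt iKO replicate 1, the library with the most fibroblast marker RNA, 31 KRAB members were lower and 12 higher. Under scaling by library totals 24 were lower and 23 higher, DESeq2 gave 25 and 5, and leaving out control replicate 1 gave 28 and 7. Of all genes, 22.6% were lower and 42.1% higher under library totals, and 25.5% and 22.1% with DESeq2. The difference between KRAB and other genes was described and not tested.

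The members lie in runs along the chromosomes. With starts at most 1000 kb apart, 76 of the 114 fell into 13 clusters of at least 3 (gene positions are those of RefSeq on GRCm38). The cluster counts below stand against 32.0% lower and 33.2% higher among all genes tested, and 83.2% with groups that did not overlap. The clusters did not move alike. Genes of a chromosome 17 cluster and of a chromosome 13 cluster were almost all lower, those of a chromosome 9 cluster were higher or not called, and those of the largest chromosome 4 and chromosome 17 clusters were mostly not called.

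**Figure D2:**
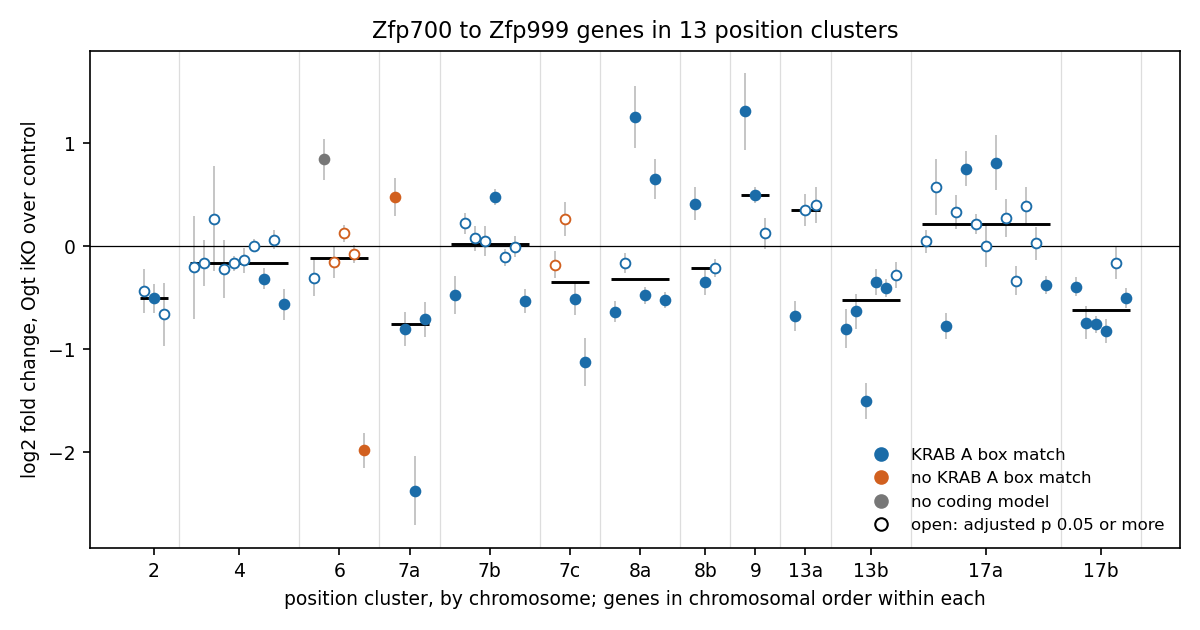
Log2 fold change (Ogt iKO over control, edgeR) with standard error of each tested member in the 13 position clusters, named by chromosome and ordered along it, with black bars for the cluster medians. In clusters 13b and 17b every point lies below 0 and 5 of 6 are filled (called), whereas cluster 8a holds called genes on both sides of 0.

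The cluster at chr17:32765496-33033381, named 17b, spans 267.9 kb and holds 6 KRAB genes, 5 of them lower, with a median log2 fold change of -0.62. Of all genes tested, 32.0% were lower, and in 40.9% both Ogt iKO libraries lay below both controls. Zfp870 was at 30.3 and 26.5 CPM in the controls and 17.1 and 14.96 CPM in the Ogt iKO libraries. Zfp799 was at 53.2 and 51.05 CPM in the controls and 31.8 and 29.8 CPM in Ogt iKO. Zfp811 was at 9.89 and 10.4 CPM in the controls and 6.43 and 5.67 CPM in Ogt iKO. In each of these genes both treated libraries lay well below both controls. Their log2 fold changes were -0.82 (SE 0.117), -0.76 (SE 0.0808) and -0.74 (SE 0.164), with adjusted p of 0.0003443, 7.131e-05 and 0.003946 (edgeR). Zfp763 fell from 27.1 and 27.3 CPM to 18.8 and 19.5 CPM (log2 fold change -0.50, adjusted p 0.001606, edgeR). These 4 calls held in all 11 alternative fits. Zfp871 was also lower (-0.39), though not under library totals (-0.22), and Zfp952, on the opposite strand, was not called (-0.16), with 16.9 and 14.2 CPM in the controls against 15.4 and 12.4 CPM in Ogt iKO, so that its groups overlapped.

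The promoters of 3 genes of this cluster that fell are printed because 5 of its 6 members were lower. Each is the RefSeq window on GRCm38 from 250 bases before to 50 bases after a transcript start, read along the strand of the gene, with the pentamer CCAAT, or ATTGG where it lies on the other strand, in capitals. The CCAAT box is a common promoter element, known as the sequence that the factor NF-Y binds. The window of Zfp811 is at chr17:32809882-32810181, that of Zfp799 at chr17:32830212-32830511 and that of Zfp763 at chr17:33033332-33033631, all on the minus strand.
Zfp811: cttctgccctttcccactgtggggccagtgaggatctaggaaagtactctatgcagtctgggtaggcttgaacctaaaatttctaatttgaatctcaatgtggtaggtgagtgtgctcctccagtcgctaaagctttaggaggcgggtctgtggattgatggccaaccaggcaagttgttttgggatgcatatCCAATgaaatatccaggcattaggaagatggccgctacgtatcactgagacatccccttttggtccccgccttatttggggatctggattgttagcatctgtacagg
Zfp799: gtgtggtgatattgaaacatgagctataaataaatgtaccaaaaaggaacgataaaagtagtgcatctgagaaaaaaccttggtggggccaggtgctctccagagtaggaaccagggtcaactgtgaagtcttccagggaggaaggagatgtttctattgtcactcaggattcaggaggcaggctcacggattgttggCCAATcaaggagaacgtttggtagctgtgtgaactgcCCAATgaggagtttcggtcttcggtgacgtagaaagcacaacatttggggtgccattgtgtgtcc
Zfp763: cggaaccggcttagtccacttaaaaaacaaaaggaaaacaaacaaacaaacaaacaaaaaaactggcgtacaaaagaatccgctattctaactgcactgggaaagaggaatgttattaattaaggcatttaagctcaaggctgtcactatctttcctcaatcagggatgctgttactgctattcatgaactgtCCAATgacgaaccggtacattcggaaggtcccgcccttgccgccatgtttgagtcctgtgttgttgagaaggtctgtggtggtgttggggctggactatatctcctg
Zfp799 holds 2 copies of the pentamer and the others 1. They contain 5, 6 and 9 CpG dinucleotides in the order printed.

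The cluster at chr13:67038594-67683512, named 13b, holds 6 KRAB members over 644.9 kb, all with both Ogt iKO libraries below both controls, and 5 of them were called. Among all genes tested, 40.9% had both Ogt iKO libraries below both controls, 32.0% were called lower and 33.2% higher. Zfp759 fell most, from 10.5 and 9.78 CPM in the controls to 3.45 and 3.74 CPM in Ogt iKO, a remainder of 35.4% (log2 fold change -1.498, SE 0.175, adjusted p 0.0001188, edgeR). Zfp712 fell from 6.78 and 6.26 CPM to 3.63 and 3.87 CPM (-0.80), and Zfp748 from 36.7 and 36.5 CPM to 26.1 and 29.2 CPM (-0.41). Zfp738 was not called (-0.28). The other 14 finger genes tested in the same span were less uniform, with 5 lower and 1 higher and a median of -0.22. A run of 4 members on chromosome 7 (7a) held 3 KRAB genes side by side, all lower, while of 9 other finger genes tested in its span 2 were higher and 1 lower (median 0.15). Zfp773 was at 3.23 and 2.54 CPM in the controls and 0.643 and 0.451 CPM in Ogt iKO, from 50 and 39 counts down to 11 and 7. It had the largest fall of all members tested (log2 fold change -2.37, SE 0.336, adjusted p 0.000335, edgeR). It passed the filter on low counts through the controls alone, the group where it was high. Its neighbours Zfp954 (-0.80) and Zfp772 (-0.71) fell less, and all 3 kept their calls in the 11 alternative fits. Zfp787, which has no KRAB box and is the first gene of the same run, went from 6.20 and 4.95 CPM to 8.07 and 7.48 CPM (0.48), a rise that was not past the threshold without Ogt iKO replicate 1 (0.43) or control replicate 2 (0.32), with DESeq2 or without a filter on low counts.

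Neighbours also moved apart. In the chromosome 8 cluster 8a, at chr8:69209018-69774911, 3 of 6 KRAB genes were lower and 2 higher. Among all genes tested, 32.0% were lower and 33.2% higher. Zfp869, one of the members with the highest level per exon length, was at 63.4 and 63.5 CPM in the controls and 43.5 and 47.7 CPM in Ogt iKO (log2 fold change -0.48, SE 0.0791, adjusted p 0.0008351, edgeR). Zfp964, the neighbouring member, was at 1.10 and 1.76 CPM in the controls and 3.04 and 3.80 CPM in Ogt iKO (1.25, SE 0.301, adjusted p 0.006003, edgeR). The groups did not overlap for either gene, and both calls held in all 11 alternative fits, with the rise of Zfp964 running from 0.95 to 1.62 as single libraries were left out. Zfp930 (-0.63) and Zfp866 (-0.52) fell as well. Zfp963 rose by 0.65, but 40.8% of its exon length lies under an exon of Gm20422 on the same strand, and its call was lost without Ogt iKO replicate 2 (0.56) or control replicate 1 (0.58) and with DESeq2. The promoters of the pair that moved in opposite directions are at chr8:69716853-69717152 on the minus strand for Zfp869 and at chr8:69654306-69654605 on the plus strand for Zfp964.
Zfp869: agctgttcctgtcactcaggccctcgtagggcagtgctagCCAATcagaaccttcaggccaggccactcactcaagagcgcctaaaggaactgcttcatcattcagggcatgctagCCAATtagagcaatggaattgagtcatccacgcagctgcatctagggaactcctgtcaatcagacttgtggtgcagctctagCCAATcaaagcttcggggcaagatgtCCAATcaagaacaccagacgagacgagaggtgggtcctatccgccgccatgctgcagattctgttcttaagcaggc
Zfp964: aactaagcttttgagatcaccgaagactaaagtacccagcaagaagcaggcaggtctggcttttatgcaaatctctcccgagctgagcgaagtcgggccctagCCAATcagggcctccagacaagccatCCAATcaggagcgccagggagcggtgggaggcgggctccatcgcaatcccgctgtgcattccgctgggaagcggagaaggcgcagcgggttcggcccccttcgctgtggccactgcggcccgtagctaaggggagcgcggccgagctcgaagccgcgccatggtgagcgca
Both hold the CCAAT pentamer, in 4 and 2 copies, and they differ in CpG dinucleotides, with 8 in the window of Zfp869 and 24 in that of Zfp964.

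The chromosome 9 cluster, at chr9:22188166-22307814, had no member that fell, while the 1 other finger gene tested in its span was lower (-0.57). Zfp809 encodes a KRAB zinc finger protein known to start the silencing of retroviruses in embryonic cells by binding their primer binding site. It was at 41.2 and 44.01 CPM in the controls and 59.1 and 61.4 CPM in Ogt iKO, so that both treated libraries lay above both controls (log2 fold change 0.50, SE 0.0780, adjusted p 0.0005804, edgeR), and it kept the call in all 11 alternative fits. Zfp872, next to it, was low throughout, with 8 and 14 counts in the controls and 27 and 31 in Ogt iKO. It passed the filter on low counts through the Ogt iKO libraries alone, the group where it was high. Its log2 fold change was 1.31 (SE 0.370, adjusted p 0.01302, edgeR), and it was not called without control replicate 1 (0.95) or with DESeq2. Zfp810, the last gene of the cluster, was not called (0.13). The promoters are at chr9:22225453-22225752 for Zfp809 and chr9:22187916-22188215 for Zfp872, both on the plus strand.
Zfp809: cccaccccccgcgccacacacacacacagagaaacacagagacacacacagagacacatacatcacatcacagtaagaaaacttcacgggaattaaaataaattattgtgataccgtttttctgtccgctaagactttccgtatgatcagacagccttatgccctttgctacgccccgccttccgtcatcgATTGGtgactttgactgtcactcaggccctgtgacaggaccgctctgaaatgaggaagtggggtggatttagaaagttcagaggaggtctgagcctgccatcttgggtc
Zfp872: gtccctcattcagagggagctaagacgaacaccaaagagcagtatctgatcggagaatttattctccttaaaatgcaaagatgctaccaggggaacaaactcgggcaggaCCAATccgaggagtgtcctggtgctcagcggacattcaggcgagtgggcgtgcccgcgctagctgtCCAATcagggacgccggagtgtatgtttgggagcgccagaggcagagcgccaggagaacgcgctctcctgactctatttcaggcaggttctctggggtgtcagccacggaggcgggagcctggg
The window of Zfp809 holds the pentamer once, on the other strand, and 11 CpG dinucleotides, and that of Zfp872 holds it in 2 copies and has 17.

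The cluster with the most members, 17a at chr17:21565816-22867309, was mixed, with 13 KRAB genes of which 2 were higher, 2 lower and 9 not called (median log2 fold change 0.22). Its share called was 30.8%, against 65.3% of all genes tested (33.2% higher and 32.0% lower). Zfp995 rose from 5.04 and 5.61 CPM in the controls to 9.01 and 8.96 CPM in Ogt iKO (0.75, SE 0.168, adjusted p 0.00405, edgeR), and Zfp760 fell from 21.3 and 22.6 CPM to 13.9 and 11.8 CPM (-0.77, SE 0.127, adjusted p 0.0007885, edgeR). In both genes the groups were well apart, and both calls held in all 11 alternative fits. Zfp947 was at 1.74 and 1.83 CPM in the controls and 2.69 and 3.61 CPM in Ogt iKO (0.81). Its call was lost without Ogt iKO replicate 2 (0.57), control replicate 1 (0.77) or control replicate 2 (0.84), and with DESeq2. Zfp945 was lower (-0.37), though not under library totals (-0.21).

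The 10 members on chromosome 4, at chr4:145510759-147849126, included 3 of the 5 with the highest level per exon length, and few of them changed. RPKM (reads per kilobase of exon, scaled to depth as CPM is) sets genes of different length on one scale. On it Zfp979 was at 62.1 in control, Zfp982 at 45.6 and Zfp985 at 38.7, each a mean of 2 libraries. Zfp740 (44.5) and Zfp869 (39.9), which lie elsewhere, completed the 5. Zfp979 was at 236 and 274 CPM in the controls and 184 and 227 CPM in Ogt iKO (log2 fold change -0.31, adjusted p 0.02599, edgeR). Its libraries were uneven within each group, and the call was lost without Ogt iKO replicate 1 (-0.17) or control replicate 2 (-0.21), with DESeq2, with a robust spread and under library totals. Zfp933 was lower (-0.56), though not without control replicate 2 (-0.41) or under library totals. Zfp982 (-0.14) was not called except without Ogt iKO replicate 1 (-0.33), and Zfp985 (0.01) was called only under library totals, as higher (0.18). The share of 75-base words that also occur in transcripts of other genes differed widely in this cluster. It was over 10% for 6 of the 10, among them Zfp979 (19.8%), Zfp980 (57.1%) and Zfp987 (87.4%), whose counts are uncertain to that extent, and 0 for Zfp933, 4.67% for Zfp982, 4.73% for Zfp985 and 8.49% for Zfp990.

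For 7 of the 10 chromosome 4 members the groups overlapped, whereas they did not for 83.2% of all genes tested. In some of these members the libraries of one group differed strongly. Zfp990, chosen after its values were seen, had 1539 and 570 counts in control replicates 1 and 2 and 1513 and 459 in Ogt iKO replicates 1 and 2. Both libraries numbered 1 were high and both numbered 2 were low, in control and in Ogt iKO alike. The log2 fold change between the treatments was -0.20 (adjusted p 0.7366, edgeR), and it ran from -1.20 without Ogt iKO replicate 1, where it was called lower, to 0.66 without control replicate 1. With the replicate number as a block the fold change was -0.24 and Zfp990 was called lower (adjusted p 0.01952, edgeR). For the number itself, a test chosen after seeing the data, the log2 difference between numbers 2 and 1 was -1.499 for Zfp990 (adjusted p 1.458e-09, edgeR quasi-likelihood with Benjamini-Hochberg adjustment). Of 14525 genes, 31 passed that test (863 at an unadjusted p under 0.05), and Zfp990 was the 1 member among them. Of the 31, 6 lie on chromosome 4, which holds 6.53% of the genes tested, and the other one within this cluster was the KRAB finger gene Zfp534, outside the symbol range, with 470 and 593 counts in Ogt iKO replicates 1 and 2 and 441 and 672 in control (log2 difference between numbers 2 and 1 of 0.55, adjusted p 0.007203, edgeR). The largest difference of the 31 was that of Eno1b (-7.01). It had 270 and 0 counts in Ogt iKO replicates 1 and 2 and 425 and 5 in control. The 31 also included genes known from other cell types, named after their values were seen. Lyz2, known from macrophages, had 1542 and 649 counts in Ogt iKO replicates 1 and 2 and 316 and 51 in control, and Lox, known from fibroblasts, had 2550 and 559 in Ogt iKO and 509 and 383 in control. Their part in the pattern of Zfp990 was not tested. Zfp987 went the other way, from 18 and 50 counts in control replicates 1 and 2 and 27 and 59 in Ogt iKO. A difference of at least 1.5-fold in the same direction in both groups was found for 1.15% of all genes tested and for 1.77% of the members (2 of 113). The 2 members were Zfp990 and Zfp987, so both are among the 10 of the chromosome 4 cluster, where the pattern was first seen. The labels give the replicate numbers without saying what they share.

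**Figure D3:**
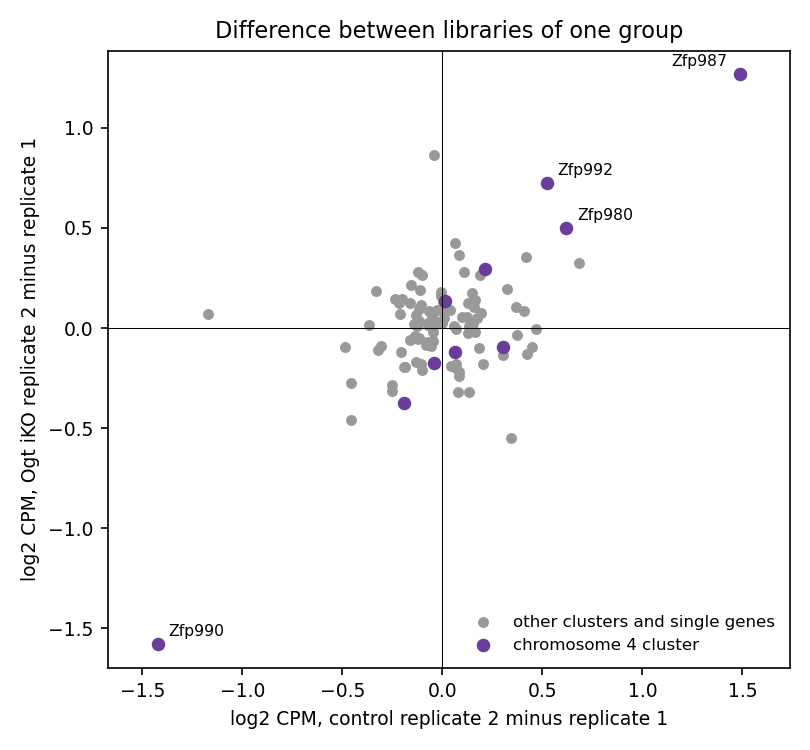
Log2 difference in CPM between replicate 2 and replicate 1, in control (horizontal) and in Ogt iKO (vertical), for the 108 tested members with at least 1 CPM in both libraries numbered 1; purple points are the chromosome 4 cluster. Most genes sit near the origin, Zfp990 lies far to the lower left and Zfp987 far to the upper right.

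Beyond these clusters, Zfp764 and Zfp940 were the KRAB genes with the largest falls. Zfp764, in a run of 4 members on chromosome 7 (7c), was at 4.91 and 6.58 CPM in the controls and 2.75 and 2.51 CPM in Ogt iKO (log2 fold change -1.12, SE 0.231, adjusted p 0.002696, edgeR). Zfp940, which lies next to Zfp790 on chromosome 7 and in no cluster of 3, fell from 20.7 and 19.04 CPM to 10.996 and 11.3 CPM (-0.83, SE 0.122, adjusted p 0.00041, edgeR). The 2 groups did not overlap for either, and both calls held in all 11 alternative fits. Zfp747, beside Zfp764, was lower in the fit of all libraries (-0.51) but not without Ogt iKO replicate 1 (-0.45) or control replicate 2 (-0.43), with DESeq2 or under library totals. Zfp936, in a run of 8 KRAB genes on chromosome 7 (7b), was the most abundant KRAB gene per exon length that rose. Its level was 53.6 and 58.5 CPM in the controls and 74.7 and 81.6 CPM in Ogt iKO (0.48, adjusted p 0.0009489, edgeR). Zfp791, on chromosome 8 and in no cluster, rose from 3.62 and 4.11 CPM to 6.90 and 6.45 CPM (0.79), a call that DESeq2 did not make. Zfp939 and Zfp783, which have no coding model, moved apart, with Zfp939 lower (-1.27) and Zfp783 higher (0.85), and DESeq2 made neither call.

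The other clusters are described in brief. In the run on chromosome 2, 1 of 3 tested members was lower, Zfp971, from 13.4 and 14.99 CPM in the controls to 10.1 and 9.93 CPM in Ogt iKO (-0.50), a call lost without control replicate 2 (-0.43), with DESeq2 and under library totals. Of the 3 in the run 13a on chromosome 13, Zfp808 fell from 18.3 and 19.4 CPM to 10.3 and 13.3 CPM (-0.68, SE 0.148, adjusted p 0.00372, edgeR), while Zfp935 (0.35) and Zfp934 (0.40) lay above the controls in both treated libraries and were not called. Zfp935 was called higher without Ogt iKO replicate 1 (0.45) or control replicate 2 (0.51), with the replicate number as a block (0.36) and under library totals (0.52), and Zfp934 under library totals (0.57). All of the exon length of Zfp935 (100%) lies under exons of Gm49359 or Zfp934 on the same strand, so its count cannot be assigned to it alone. In the run 8b on chromosome 8, Zfp709 was higher (0.41) and Zfp882 lower (-0.35), and both calls were lost without Ogt iKO replicate 1 (0.31 and -0.31), control replicate 1 (0.46 and -0.29) or control replicate 2 (0.36 and -0.42) and with DESeq2 (0.39 and -0.37). The call of Zfp709 was also lost without a filter on low counts, and that of Zfp882 under library totals (-0.18). In 7b, 2 of 8 were lower and 1 higher. Of the 20 KRAB members that stand outside clusters, 7 were lower and 3 higher, with a median log2 fold change of -0.16, against 27 lower and 8 higher of the 67 tested within clusters (median -0.21). These are 35.0% lower and 15.0% higher outside and 40.3% and 11.9% within, where 32.0% and 33.2% of all genes tested were lower and higher. The copies in these runs share sequence. Among KRAB members with over 10% of their 75-base words in transcripts of other genes, 10 of 24 were lower (41.7%) and 1 higher (4.17%). Among those with at most 10%, 24 of 63 were lower (38.1%) and 10 higher (15.9%). Both stand against 32.0% lower and 33.2% higher of all genes tested.

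Beside Zfp809, 3 of the KRAB members chosen for known roles have been tied to particular transposable elements. Zfp819, known from pluripotent cells and linked to the repression of endogenous retroviruses, fell from 19.6 and 18.9 CPM in the controls to 13.2 and 13.5 CPM in Ogt iKO (log2 fold change -0.53, SE 0.116, adjusted p 0.00356, edgeR). Zfp932, known to bind endogenous retroviruses of the ERVK class together with its paralog Gm15446, fell from 11.5 and 10.4 CPM to 7.25 and 7.35 CPM (-0.59, SE 0.155, adjusted p 0.009485, edgeR). Zfp708, in cluster 13b and known to bind the retroviral repeat RMER19B, fell from 8.53 and 8.80 CPM to 5.97 and 5.22 CPM (-0.63, SE 0.170, adjusted p 0.01062, edgeR). All 3 were thus lower in both treated libraries than in both controls, while Zfp809 was higher. The call of Zfp932 was lost without control replicate 1 (-0.52), and 30.8% of its 75-base words also occur in transcripts of Gm15446. The call of Zfp708 was lost with DESeq2, and 96.3% of its exon length lies under exons of other genes on the same strand, so its count is uncertain.

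**Figure D4:**
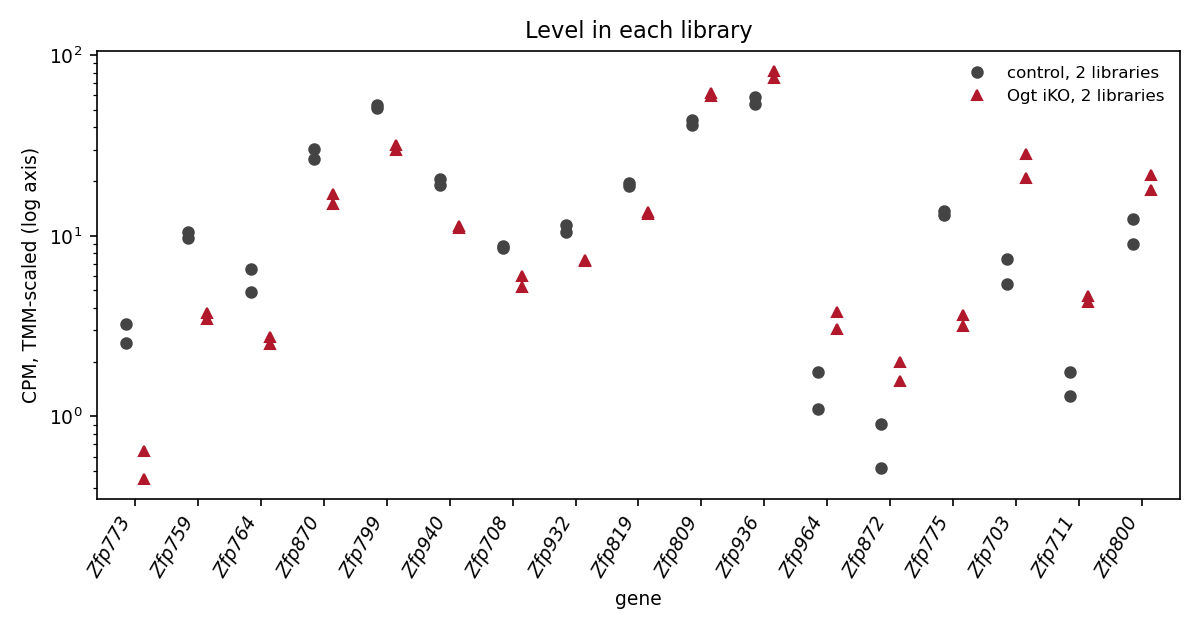
Level in CPM (TMM-scaled library sizes, logarithmic axis) of 17 members in each of the 2 control libraries (circles) and the 2 Ogt iKO libraries (triangles). For all 17 the circles and triangles do not overlap, as for 83.2% of all genes tested. The 17 are called members, several of them named by a rule that asked for groups apart, so this follows in part from the choice. Replicates lie close together except in the lowest genes, such as Zfp773, Zfp964 and Zfp872.

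The 24 members without a KRAB match included the 2 largest rises of all members tested, those of Zfp703 and Zfp711. Zfp703 encodes a transcriptional corepressor of the NET family. It was at 7.43 and 5.41 CPM in the controls and 28.5 and 20.8 CPM in Ogt iKO, or 384% of the control mean (log2 fold change 1.94, SE 0.202, adjusted p 6.307e-05, edgeR). Zfp711, on chromosome X and linked to intellectual disability in its human form, rose from 1.29 and 1.76 CPM to 4.62 and 4.32 CPM (1.55, SE 0.254, adjusted p 0.0007757, edgeR). Zfp800 rose from 12.3 and 8.997 CPM to 21.8 and 17.99 CPM (0.90, SE 0.174, adjusted p 0.001924, edgeR). Zfp750, a regulator of epidermal differentiation, rose from 9.63 and 12.5 CPM to 18.7 and 18.2 CPM (0.74), and Zfp704 from 38.6 and 47.6 CPM to 70.1 and 63.8 CPM (0.64). In all 5 the groups were apart and the calls held in all 11 alternative fits. Part of the exons of Zfp703 (13.5%) and of Zfp704 (16.6%) lies under exons of the opposite strand, so reads of those partners can count for them if the strand was not used. Zfp974 was higher by 0.74, from 2.26 and 2.87 CPM to 5.09 and 3.48 CPM, but not without Ogt iKO replicate 1 (0.45), control replicate 1 (0.57) or control replicate 2 (0.91), with DESeq2 or without a filter on low counts.

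Others of this group fell or were not called. Zfp775, in a run of 6 members on chromosome 6, fell from 13.1 and 13.8 CPM in the controls to 3.63 and 3.16 CPM in Ogt iKO, a remainder of 25.3% (log2 fold change -1.98, SE 0.171, adjusted p 2.431e-05, edgeR). An antisense gene overlaps 12.3% of its exon length. The other members of that run that encode proteins were not called, with Zfp786 at -0.30, Zfp956 at -0.15, Zfp777 at 0.13 and Zfp746 at -0.07. Both Ogt iKO libraries lay below both controls for Zfp786, a KRAB gene, and above them for Zfp777. Of 5 other finger genes tested in the span, 3 were higher and 1 lower (median 0.85). Zfp740, with 44.5 RPKM in control and 32.8 in Ogt iKO, fell from 222 and 231 CPM to 166 and 168 CPM (-0.44, SE 0.0553, adjusted p 0.0001728, edgeR). Zfp706, which is known to promote the exit of mESC from self-renewal, fell from 179 and 163 CPM to 143 and 139 CPM (-0.28, adjusted p 0.005324, edgeR), a call that library totals did not give (-0.11). Zfp827, whose human form is known at telomeres kept by recombination, was lower (-0.48), with control replicate 2 high at 24.9 CPM against 18.03 CPM in control replicate 1. Without control replicate 2 (-0.23) or under library totals (-0.31) it was not called. Zfp830, needed in the early embryo, was not called, at 37.5 and 36.2 CPM in the controls and 34.9 and 34.5 CPM in Ogt iKO (-0.09).

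The proteins through which KRAB zinc fingers act were examined from a list of 25 genes. Of the 24 tested, 16 were lower (66.7%) and 4 higher (16.7%), against 32.0% and 33.2% of all genes tested, with a median log2 fold change of -0.36. Trim28, the corepressor that binds the KRAB domain, was at 2529 and 2455 CPM in the controls and 1563 and 1661 CPM in Ogt iKO (-0.63, SE 0.0604, adjusted p 4.157e-05, edgeR). Both treated libraries lay far below both controls. The heterochromatin protein genes Cbx3 (-0.76), Cbx1 (-0.65) and Cbx5 (-0.39) and the HUSH subunit gene Tasor (-0.73) were lower, and Setdb1, whose product methylates histone H3 in this pathway, was not called (0.12). Those that rose were Chd3 (1.30) and Chd4 (0.21), helicases of the NuRD complex, Pphln1 (0.52), a HUSH subunit, and Dnmt3l (1.31), a partner of the de novo DNA methyltransferases. Sumo2 had 4 and 4 counts in Ogt iKO and 5 and 3 in control and was not tested.

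The KRAB members were split by level and by finger number, and all shares here stand against 32.0% lower and 33.2% higher among all genes tested. Of the 46 KRAB members above the median control level of all members (3.36 RPKM), 23 were lower (50.0%) and 3 higher (6.52%), with a median log2 fold change of -0.32. Of the 41 tested at or under it, 11 were lower (26.8%) and 8 higher (19.5%), with a median of 0.05. Split by the number of C2H2 fingers at the median of 11, the 44 KRAB members with more fingers had 22 lower (50.0%) and 3 higher (6.82%), and the 43 tested with 11 or fewer had 12 lower (27.9%) and 8 higher (18.6%). Control level enters the fold change itself, and neither split was tested.

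**Figure D5:**
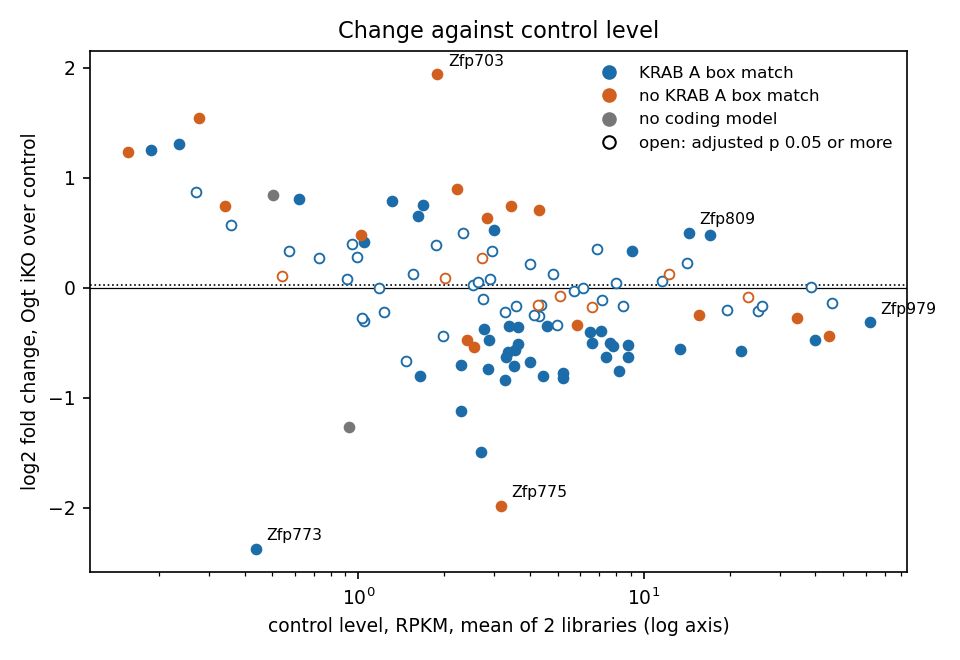
Log2 fold change (Ogt iKO over control, edgeR) of each tested member against its mean control level in RPKM (logarithmic axis); filled points are called, blue points match the KRAB A box pattern, and the dotted line is the median of all genes tested (0.02). To the right of 3.36 RPKM the filled blue points lie below 0 except for Zfp809, Zfp936 and Zfp951.

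A promoter window was found in RefSeq for 101 of the 114 members. The pentamer CCAAT, searched on both strands (CCAAT or ATTGG), occurred in 66.3% of the windows of members and in 71.6% of the 81 windows of KRAB members, against 37.9% of all 27025 promoters of the same length and 39.0% of those of the genes tested. It occurred in 44.4% of the 18 windows of members without a KRAB box and in 56.2% of the 128 windows of KRAB finger genes outside the symbol range. Among KRAB members it occurred in 23 of the 31 windows of lower genes, 7 of the 10 of higher genes and 27 of the 39 of genes not called, and the differences between these shares were not tested. The hexamer TATAAA, searched on both strands (TATAAA or TTTATA) and able to share its outer T or A with the pentamer, occurred in 2.97% of the windows of members, 14.1% of all, 7.17% of those of the genes tested and 7.03% of those of KRAB finger genes outside the range. The median number of CpG dinucleotides was 9 for KRAB members, 24 for the others, 7 for all promoters and 20 for those of the genes tested. Copies share ancestry, so these windows are not independent, and a match is a description of letters only.

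The other 10 symbols of the range had fewer than 20 counts in all. Zfp831 had 15, just under the minimum, and Zfp972 (27) and Zfp853 (53) were the next above it. Zfp735 had 1 count, and Zfp957, Zfp781, Zfp991, Zfp965, Zfp966, Zfp967, Zfp968 and Zfp973 had 0 in every library, which allowed up to 3 counts, or 0.175 to 0.196 CPM. Such limits cover counting error only. Of the 75-base words of Zfp965 and Zfp967, 100% also occur in transcripts of other genes, and reads that map to several loci may not have been counted, so a count of 0 for such copies was not a measure of their RNA.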

How the data were processed

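The authors deposited, for each of the 4 libraries, a table of raw counts per gene symbol with no normalization. The submitters' processing notes name STAR, Picard and the mouse build mm10 (GRCm38), with no role or version. Per the labels' protocols the libraries were stranded mRNA libraries. The annotation, the strand counted and the treatment of reads that map to several loci are not given in the sources used here, so counts of close copies and of overlapping genes are uncertain. The tables held 0 rows that name no gene.

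Counts were tested in R 4.3.3 with edgeR 4.0.16 (glmQLFit and glmQLFTest, TMM scaling, filterByExpr, all 4 libraries in 1 fit), with Benjamini-Hochberg adjustment over 14525 genes and calls at an adjusted p under 0.05. An exact test of 2 against 2 libraries cannot go below p = 0.333. Libraries of 1 group differed by more than sampling noise (chi-square per degree of freedom 7.04 in Ogt iKO and 4.25 in control). Alternatives were RLE factors, library totals, DESeq2 1.42.0, other filters, thresholds and minimums, a robust spread, a replicate block, and leaving out each library.

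Positions and promoters came from RefSeq on GRCm38. Exon lengths, overlaps, 75-base words shared with other genes and protein features came from GENCODE M21 models on the same build, where a RefSeq protein had been planned. A KRAB A box needed 10 of 16 fixed residues within the first 150, and fingers followed C-x(2,4)-C-x(12)-H-x(3,5)-H. The genes named are Ogt, the 10 largest called rises and falls with groups apart and a mean log2 CPM of at least 0, the 5 members with the highest control RPKM, 12 members with known roles and up to 4 of each cluster. Zfp990 and members named to complete a cluster were added after their values were seen. The members and all lists were chosen with earlier results of these data known.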

Additional observations from a re-analysis of the deposited data

How the results depend on the processing

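Of the 63 called members, 32 (10 higher, 22 lower) kept their call in all 11 alternative fits, and none changed sign. DESeq2 did not call 20 of them (10 higher, 10 lower). The count of higher members was 21 in the fit of all libraries, 35 under library totals, 11 with DESeq2, 13 at an adjusted p under 0.01 and 5 at a fold of at least 2. The count of lower members was 42, and 5 at a fold of at least 2. Of all genes, 33.2% were higher in the fit of all libraries, 42.1% under library totals and 22.1% with DESeq2. For KRAB members, an alternative chosen after seeing the data, the counts were 11 higher and 34 lower. They were 23 higher under library totals, 5 with DESeq2, 6 at an adjusted p under 0.01 and 2 higher and 3 lower at a fold of at least 2. Leaving out 1 library gave 15 to 19 higher and 32 to 46 lower members, and 7 to 12 higher and 26 to 38 lower KRAB members, with 7 without control replicate 1. The median log2 fold change ran from -0.1757 to -0.0939 without 1 library (lowest without control replicate 2, highest without control replicate 1), and was 0.0065 under library totals, which shift all genes. Library totals, an alternative added after seeing the data for these sums, also moved the summed level in Ogt iKO from 88.9% of control to 99.97% for all members, from 87.1% to 97.95% for KRAB members and from 93.1% to 104.7% for those without the box. The cause of the other changes was not tested. With the replicate number as a block there were 23 higher and 45 lower members (median -0.16). The labels give only numbers, and deviations from group means of libraries with the same number correlated at 0.0859 across 14525 genes, so pairing was not assumed. Restricting to members with at most 10% shared 75-base words gave 19 higher and 32 lower of 87. Genes of a few counts are limited by counting error.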

Other observations

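Zinc finger genes outside the symbol range were measured in the same libraries. Of the 252 tested with other Zfp symbols, 100 were lower (39.7%) and 52 higher (20.6%), against 32.0% and 33.2% of all genes tested, with a median log2 fold change of -0.15. Among 7 looked at singly, Zfp57, a KRAB protein that protects methylation at imprinted loci, fell from 153 and 156 CPM in the controls to 98.1 and 105 CPM in Ogt iKO (log2 fold change -0.61, adjusted p 4.946e-05, edgeR). Zfp459 fell (-0.90), as did Zfp42, also known as Rex1 (-0.52), and Zfp110 (-0.40). Zfp568 (-0.10) and Zfp600 (0.02) were not called.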
